A study of Mus musculus with 4 samples.

Results

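The genes described here encode enzymes that remove peroxides, superoxide and reactive electrophiles: glutathione S-transferases, glutathione peroxidases, peroxiredoxins, superoxide dismutases, catalase and thioredoxins. They were taken by name, as every gene whose symbol on the array begins with Gsta, Gstk, Gstm, Gsto, Gstp, Gstt, Gstz, Mgst, Gpx or Prdx and a number, or is Sod1, Sod2, Sod3, Cat, Txn1 or Txn2. This gave 46 of 31896 gene names, on 64 of 39429 probes. RNA came from skin epithelial cells of adult C3H/HeN mice, that were sorted as positive for CD49f (the alpha 6 integrin) and for CD34. The 0p cells were sorted from primary cells and the 15p cells after the 15th of a series of 10-day cultures with the growth factor Wnt-3a in collagen-coated 60-mm dishes, with a fresh sort between cultures. Per the labels, Wnt-3a was a treatment of 0p cells too, but not whether those were cultured with it before extraction. Each of 4 arrays held 15p RNA in one dye against 0p RNA in the other, and 2 biological replicates were each run in both dye orientations. An array is named here by its replicate and the dye of its 15p RNA, as 1-Cy5, 1-Cy3, 2-Cy5 and 2-Cy3. Nothing ties the replicates to separate animals or cultures, so p-values measure only the spread between these samples, which may be technical.

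Glutathione S-transferases join the tripeptide glutathione to electrophiles, and glutathione peroxidases use glutathione to reduce peroxides. Peroxiredoxins reduce peroxides through a reactive cysteine that thioredoxin restores, while superoxide dismutases and catalase act on superoxide and hydrogen peroxide without either thiol system. Epidermis meets oxygen, light and foreign chemicals directly, and several of these genes are known targets of the transcription factor NRF2, which protects keratinocytes from oxidative damage.

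In both RNAs the same genes of this set were well above background on all arrays, and no difference in level was called. Of the 46 genes, 37 were well above background on all 4 arrays in both RNAs, and 0 were so in only 1 of them. In 15p cells 0 of the 37 were called higher and 0 lower, as for all 17376 genes tested (0% of genes in either direction; limma with Benjamini-Hochberg adjustment, lowest adjusted p = 0.749). At an unadjusted limma p under 0.05 there were 5 of the 37, or 13.5%, against 6.31% of all genes. These were Gstp1, Gsta3, Gsta2, Gpx2 and Prdx5, all with ratios above 0. That share depends on the scaling and the arrays: 2 of the 37 were under 0.05 with the software's processed signals (5.28% of all genes) and 2 with the authors' deposited value table (5.24%). There were 9 with each array centred on its median (8.07%), 2 in the fit of 4 arrays with a dye term (1.86%) and 0 without array 1-Cy3 (1.02%). The log2 ratio of 15p over 0p ran from -0.076 for Gstm4 to 0.18 for Gstp1. The 95% interval of each of the 37 lay within a 1.3-fold difference in both directions, as it did for 98.7% of all genes. These intervals draw mostly on the spread shared by all genes (residual degrees of freedom 1, prior 8.88). They leave out the gap between the arrays of a pair, so they do not show that levels were equal.

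Ratios above 0 outnumbered those below it, with 26 above and 11 below. That is 70.3% above 0, where all tested genes had 51.4%. The median ratio was 0.050 for the members and 0.0025 for all tested genes. The share depends on the scaling: with each array centred on its median in place of loess, 36 of the 37 lay above 0, but so did 63.4% of all genes. By array the members' medians were 0.020 (1-Cy5), 0.042 (1-Cy3), 0.088 (2-Cy5) and 0.035 (2-Cy3), all above 0. Those of all tested genes were 0.013, -0.011, 0.0076 and 0.0028 in the same order, so the gap was small on array 1-Cy5. The ratio had the same sign on all 4 arrays for 7 members (18.9%, against 6.78% of all genes), and all 7 were positive: Gsta1, Gsta2, Gsta3, Gstm5, Gsto2, Gstz1 and Mgst1. For Mgst1 this was its brighter probe, while the other was below 0 on arrays 2-Cy5 and 2-Cy3 (-0.057 and -0.010). The shares in this paragraph are a description, without a test.

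**Figure D1:**
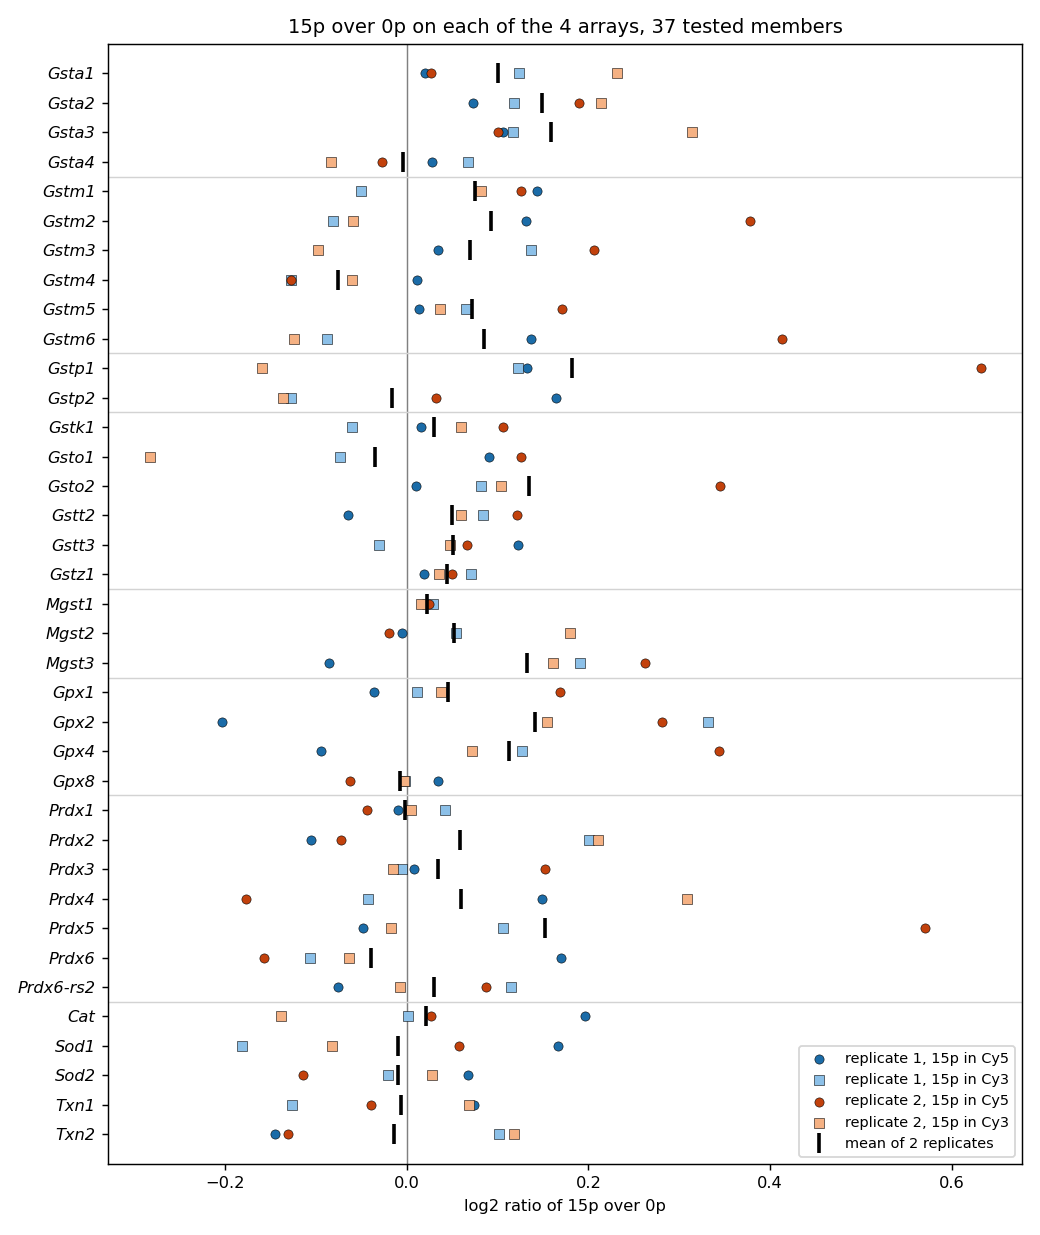
Log2 ratio of 15p over 0p for the 37 tested members (rows, grouped by family) on each of the 4 arrays, with blue for replicate 1, orange for replicate 2, circles for 15p in Cy5, squares for 15p in Cy3 and black bars for the mean of the 2 replicates. Gsta1, Gsta2 and Gsta3 lie to the right of 0 on every array, while Gstp1 and Prdx5 owe their position mostly to array 2-Cy5 (0.63 and 0.57).

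The alpha class of glutathione transferases, known for reducing lipid peroxides and conjugating lipid aldehydes, had a median of 0.12 (4 tested genes, 3 above 0). This was the highest family median, though not in every setting: with the mean of a gene's probes Gstp had 0.12 and Gsta 0.10, and without array 1-Cy5 Gpx had 0.16 and Gsta 0.13. Without array 2-Cy3 Gstp had 0.12 and Gsta 0.092. In the following, single-array log2 ratios are given in the order of arrays 1-Cy5, 1-Cy3, 2-Cy5 and 2-Cy3. Gsta3 had 0.11, 0.12, 0.10 and 0.31. Gsta2 had 0.073, 0.12, 0.19 and 0.21. Both were thus above 0 whichever dye 15p carried, and highest on array 2-Cy3. The mean was 0.16 ± 0.068 (SD, n = 2; 95% interval 0.035 to 0.28) for Gsta3 and 0.15 ± 0.075 (0.023 to 0.27) for Gsta2, or 1.12-fold and 1.11-fold, and neither passed (limma, adjusted p = 0.749 for both). The Gsta3 probe lies at chr1:21255189-21255248 (mm9). A second one just before it, at chr1:21255043-21255102, gave 0.11, -0.16, 0.088 and 0.13, with a mean of 0.042, so the common sign on 4 arrays was that of the brighter probe. Gsta4, which prefers the aldehyde 4-hydroxynonenal, had a ratio of -0.0040.

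Gsta1 and Gsta2 are close paralogs, and their probes are near copies, so that the probes may not measure the genes apart. Over 50 aligned bases the probes were identical at 46 (92.0%). The stretch of 30 bases in which they are most alike is shown here, 5′ to 3′, with the bases that both share in capitals.
Gsta1: CTGGCCTCTAATgGTTTGCAATTATAAAAa
Gsta2: CTGGCCTCTAATtGTTTGCAATTATAAAAt
The Gsta1 probe lies at chr9:78090411-78090470 and the Gsta2 probe at chr9:78178856-78178915 (mm9, opposite strands). Gsta1 had 0.020, 0.12, 0.026 and 0.23, with a mean of 0.10 ± 0.041 (n = 2). Of the 7 members with 1 sign on all arrays, these 2 may therefore not be separate measurements.

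In the pi class, Gstp1 had the largest mean ratio of all 37 members, and most of it came from 1 array. Gstp1 is an abundant transferase of epithelia that also binds stress kinases. Its log2 ratios were 0.13, 0.12, 0.63 and -0.16. Among the members' brightest probes, the value of 0.63 was the only one beyond 1.5-fold on any array. The dye swap of the same RNAs lay below 0. The mean was 0.18 ± 0.077 (SD, n = 2; 95% interval 0.056 to 0.31; limma, adjusted p = 0.749), or 1.13-fold, and it was 0.057 in a fit without that array. Gstp2, its neighbour on chromosome 19, had 0.16, -0.13, 0.032 and -0.14 on its brightest probe, a split by dye with a mean of -0.017 ± 0.050 (95% interval -0.14 to 0.11).

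The other Gstp2 probe gave a different answer, and it is the probe that resembles Gstp1. It read 0.018, 0.24, 0.68 and -0.11, with a mean of 0.21, the widest gap between probes of any member (0.22). Both are shown in full, 5′ to 3′, because they share a run of sequence; capitals mark the 30 of 35 aligned bases that are identical.
Gstp1: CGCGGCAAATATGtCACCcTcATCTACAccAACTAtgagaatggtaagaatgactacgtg
Gstp2: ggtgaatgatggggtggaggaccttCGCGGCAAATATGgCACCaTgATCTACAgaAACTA
The Gstp1 probe lies at chr19:4035908-4036723 and crosses an intron, since its 60 bases span 816 in the genome. The Gstp2 probe shown lies at chr19:4040983-4041042, and the brighter Gstp2 probe at chr19:4040283-4040342 (mm9, all on the minus strand). A second Gstp1 probe, at chr19:4037306-4037365, gave 0.030, 0.20, 0.30 and -0.082. Both Gstp1 probes and the Gstp2 probe with the shared run thus had their highest value on array 2-Cy5 and their lowest on its dye swap, 2-Cy3. Whether transcripts of one gene bind the other's probe was not tested.

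**Figure D2:**
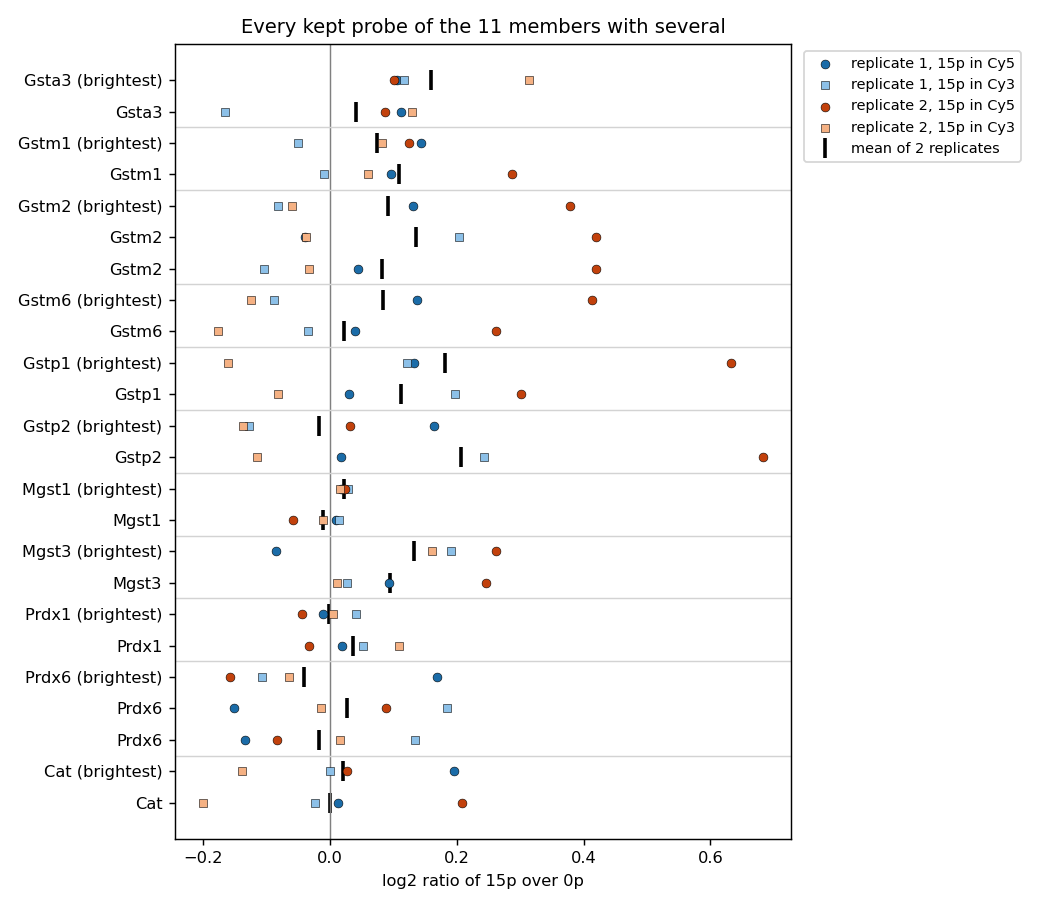
Log2 ratio of 15p over 0p on each array for every probe above background of the 11 members with more than 1 such probe, with the brightest probe of each gene first; colours and symbols stand for replicates and dyes as labelled, and black bars for the mean. The 2 probes of Gstp2 have means of -0.017 and 0.21, while the median gap between the highest and lowest probe of a gene is 0.054.

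Genes of the mu class, which conjugate glutathione to a wide range of aromatic and epoxide substrates, lie side by side on chromosome 3, and 5 of the 6 tested had ratios above 0 (median 0.073). Gstm2 had 0.13, -0.082, 0.38 and -0.059. Gstm6 had 0.14, -0.088, 0.41 and -0.12. In both, the arrays with 15p in Cy5 were above 0 and the dye swaps below it. Their means were 0.092 ± 0.096 (95% interval -0.037 to 0.22) and 0.084 ± 0.085 (-0.043 to 0.21), and neither passed (limma, adjusted p = 0.776 and 0.796). In a fit without array 2-Cy5 they were 0.030 and 0.015. All 3 Gstm2 probes had means above 0, from 0.082 to 0.14. The probe with 0.14 had -0.039, 0.20, 0.42 and -0.0375, without a split by dye, while the probe with 0.082 was split. Gstm1 is named by 2 probes, and the brighter lies at chr5:117082490-117082549 in mm9, away from the cluster on chromosome 3; it gave 0.075 and the other, at chr3:107815595-107815654, 0.11. Gstm7 was not well above background on any array in either RNA.

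The remaining soluble transferases, of the kappa, omega, theta and zeta classes, had a median of 0.047 with 5 of 6 above 0. Gsto2, which reduces dehydroascorbate and methylated arsenic compounds, had 0.010, 0.082, 0.34 and 0.10. It was above 0 on all 4 arrays, though close to 0 on the first, with a mean of 0.13 ± 0.13 (95% interval -0.00064 to 0.27; limma, adjusted p = 0.749), and 0.051 without array 2-Cy5. Its paralog Gsto1 lies close by on chromosome 19 and had a ratio of -0.035, split by dye. Gstt3, of the theta class, had 0.12, -0.031, 0.066 and 0.048, with a mean of 0.051 ± 0.0079. Its SD leaves out the gap between the arrays of a pair, which was 0.15 in replicate 1. Of the other theta class genes, Gstt1 was above background on 3 arrays in each RNA and Gstt4 on none.

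Microsomal transferases, membrane proteins of the endoplasmic reticulum and mitochondria, all had ratios above 0 (3 of 3, median 0.052). Mgst3, which acts on lipid hydroperoxides and leukotrienes, had -0.085, 0.19, 0.26 and 0.16, with a mean of 0.13 ± 0.11 (95% interval -0.00035 to 0.26; limma, adjusted p = 0.749), and 0.045 without array 2-Cy5. Its second probe gave 0.095. Mgst2, a leukotriene C4 synthase, had -0.0054, 0.054, -0.019 and 0.18, with a mean of 0.052 ± 0.040. The dye swaps were above 0 and the arrays with 15p in Cy5 just below it.

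**Figure D3:**
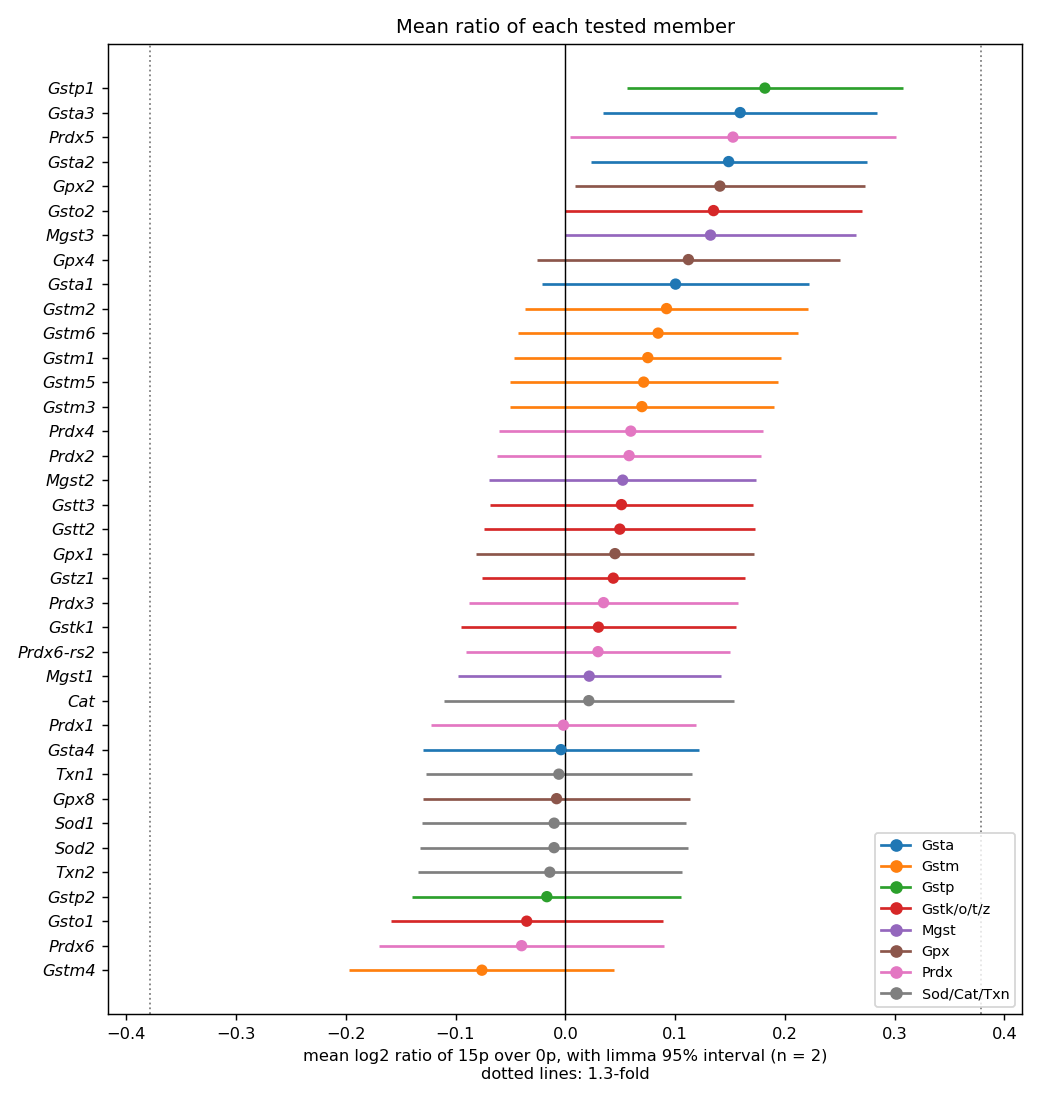
Mean log2 ratio of 15p over 0p (points) with the 95% interval of limma (lines, n = 2) for the 37 tested members, ordered by ratio and coloured by family; dotted lines mark a 1.3-fold difference. Every interval lies between the dotted lines, and the intervals of 5 members exclude 0 before adjustment, from Gpx2 (0.14) to Gstp1 (0.18).

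Among glutathione peroxidases, 4 of 8 genes were measured and 3 of these had ratios above 0 (median 0.079). The median rests on array 2-Cy5, since it was 0.0095 in a fit without that array and 0.16 in a fit without 1-Cy5. Gpx2, the peroxidase of gut and other epithelia, had -0.20, 0.33, 0.28 and 0.15. Only array 1-Cy5 was below 0, and the mean was 0.14 ± 0.11 (SD, n = 2; 95% interval 0.0090 to 0.27; limma, adjusted p = 0.749). It was 0.020 in a fit without array 2-Cy5. Gpx4, which reduces phospholipid hydroperoxides and guards against ferroptosis, had -0.094, 0.13, 0.34 and 0.072. Its mean was 0.11 ± 0.14 (95% interval -0.026 to 0.25; adjusted p = 0.752), and 0.0028 without the same array. Gpx1, the general cytosolic peroxidase, had -0.036, 0.011, 0.17 and 0.037, with a mean of 0.045 ± 0.082 (-0.082 to 0.17). Gpx8, a resident of the endoplasmic reticulum, had -0.0080. Gpx3, the secreted plasma peroxidase, Gpx5 and Gpx6, of epididymis and olfactory tissue, and Gpx7 were well above background on 0 arrays.

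Peroxiredoxins had a median of 0.035, and 5 of 7 tested genes lay above 0. Prdx5, found in mitochondria, peroxisomes and cytosol, had -0.048, 0.11, 0.57 and -0.018. It was thus high on array 2-Cy5 alone and between -0.048 and 0.11 on the others. The mean was 0.15 ± 0.17 (SD, n = 2; 95% interval 0.0040 to 0.30; limma, adjusted p = 0.749), and without that array it was -0.0020. Prdx4, the peroxiredoxin of the endoplasmic reticulum, had 0.15, -0.042, -0.18 and 0.31. Its SD was small (0.060 ± 0.0089) while its single arrays spread over both signs: 15p in Cy5 was the higher array in replicate 1 and the lower in replicate 2. Prdx1, an abundant cytosolic peroxiredoxin and NRF2 target, stayed near 0 with -0.010, 0.042, -0.043 and 0.0044 (mean -0.0017 ± 0.025; 95% interval -0.12 to 0.12).

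Prdx6, which also has phospholipase activity, had 0.17, -0.11, -0.16 and -0.064, with a mean of -0.040 ± 0.10 (95% interval -0.17 to 0.090). Its other probes above background gave 0.027 and -0.017, so the sign changed with the probe, and with median centring it was 0.015. The related sequence Prdx6-rs2 on chromosome 4 had a ratio of 0.030. Its probe shares 42 of 54 aligned bases with the second of these Prdx6 probes (capitals, both 5′ to 3′).
Prdx6: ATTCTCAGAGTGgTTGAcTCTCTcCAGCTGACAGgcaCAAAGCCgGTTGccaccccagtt
Prdx6-rs2: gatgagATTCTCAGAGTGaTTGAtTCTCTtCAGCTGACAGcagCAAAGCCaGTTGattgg
The Prdx6 probe lies at chr1:163173715-163173774 and the Prdx6-rs2 probe at chr4:25235488-25235547 (mm9). Of 1993 pairs of probes of different members, the 3 pairs described here were at least 75% identical over their whole ungapped overlap of 30 or more bases. Similar stretches inside a longer overlap were not searched for, so other members' probes, such as those of the mu class, may share them.

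Superoxide dismutases, catalase and thioredoxins lay closest to 0, with a median of -0.010 and all 5 tested means between -0.014 and 0.021. The sign of this median turned with median centring (0.042) and in the fits without array 1-Cy3 (0.0019) and without array 2-Cy5 (0.022). Sod1, the cytosolic copper and zinc enzyme, had 0.17, -0.18, 0.057 and -0.082, a split by dye with a mean of -0.010 ± 0.0033 (95% interval -0.13 to 0.11). Sod2, the manganese enzyme of mitochondria, had 0.067, -0.021, -0.11 and 0.027 (mean -0.010 ± 0.047). Cat, which breaks down hydrogen peroxide in peroxisomes, had 0.20, 0.00093, 0.027 and -0.14, with a mean of 0.021 ± 0.11 and opposite signs in the replicates. The thioredoxins restore peroxiredoxins in the cytosol (Txn1) and in mitochondria (Txn2). Txn1 had 0.074, -0.13, -0.039 and 0.068 (mean -0.0059 ± 0.029). Txn2 had -0.15, 0.10, -0.13 and 0.12 (mean -0.014 ± 0.011), below 0 wherever 15p carried Cy5. Sod3, the extracellular enzyme, was not well above background on any array.

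**Figure D4:**
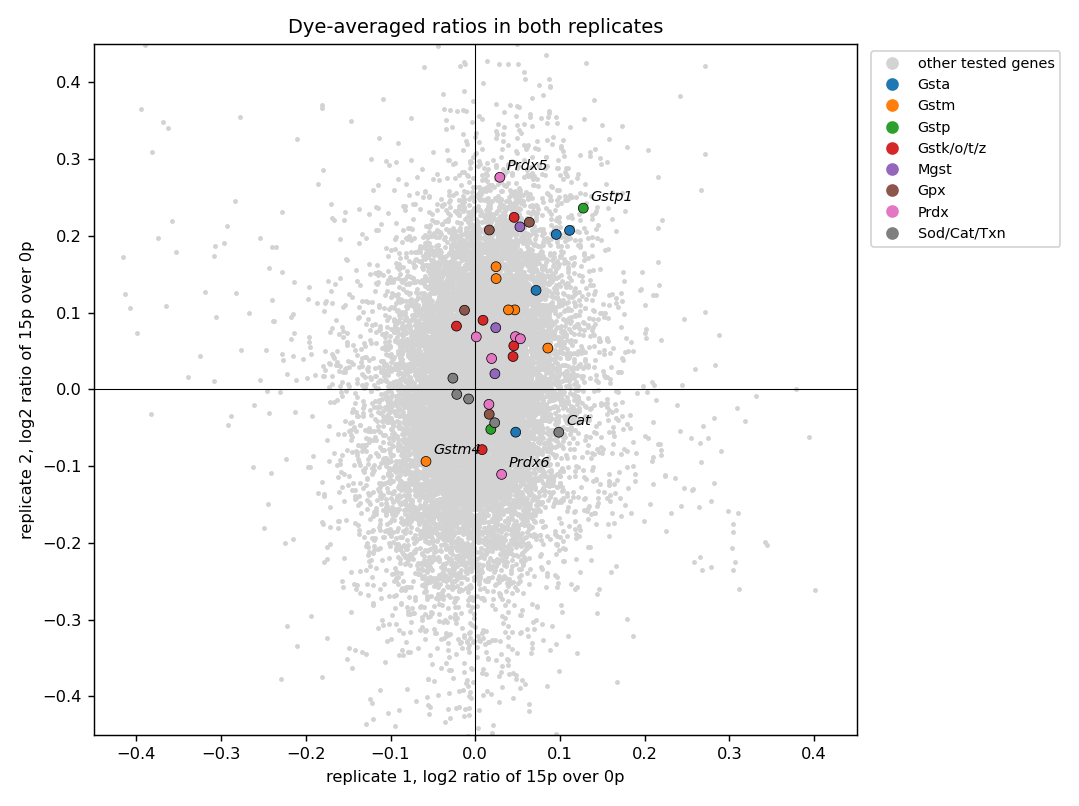
Dye-averaged log2 ratio of 15p over 0p in replicate 1 (horizontal) and replicate 2 (vertical) for the 37 tested members (coloured by family) and all other tested genes (grey, of which 139 lie outside the axes). Members above 0 in both replicates number 23 (62.2%, against 29.8% of all tested genes). Below 0 in both are 3 members, Gstm4, Sod1 and Txn2 (8.11%, against 27.1% of all tested genes).

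Replicates and dyes were compared across the members. Between replicates, the Pearson r of dye-averaged ratios was 0.44 across the 37 members, where it was 0.089 across all tested genes; genes share arrays and are not independent replicates. Within a replicate, ratios on the 2 arrays ran opposite, with r = -0.71 in replicate 1 and -0.22 in replicate 2 across members. Across all tested genes r was -0.55 in replicate 1 and -0.40 in replicate 2. For 10 members (27.0%, against 32.3% of all genes) the sign of the brightest probe's ratio was set by which dye 15p carried. The SD of the members' ratios was 0.096 (1-Cy5), 0.11 (1-Cy3), 0.19 (2-Cy5) and 0.13 (2-Cy3). Over all tested genes the SD was 0.14, 0.13, 0.29 and 0.14 in the same order. Array 2-Cy5 gave the largest absolute ratio for 16 of the 37 members (43.2%, against 56.8% of all genes). Without it, in a fit with a dye term, the median of the members was 0.022.

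**Figure D5:**
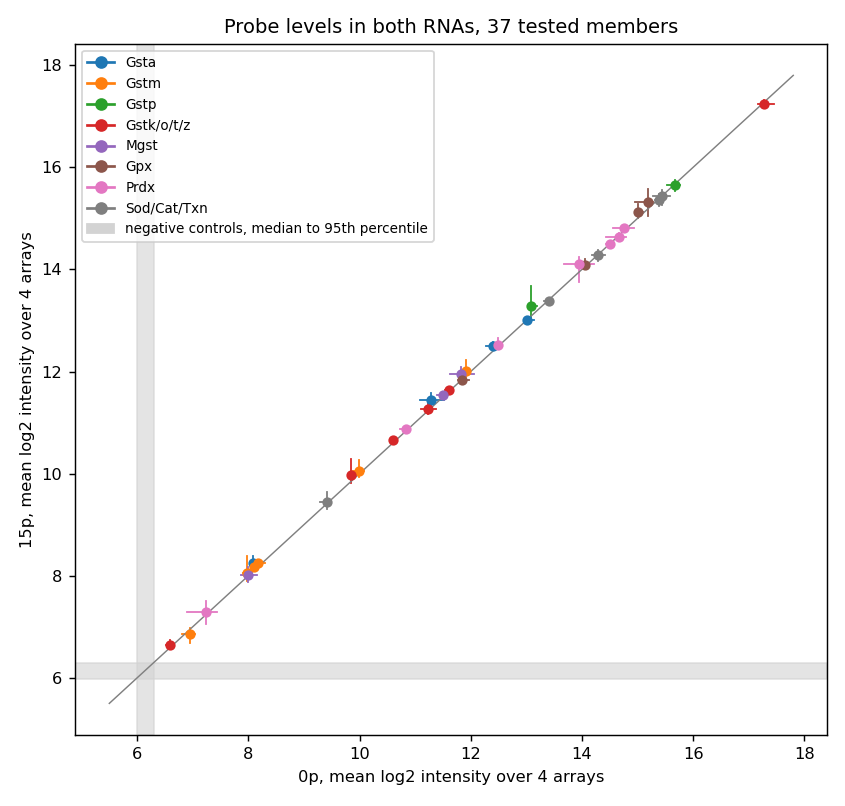
Mean log2 intensity over the 4 arrays in 0p (horizontal) and 15p cells (vertical) for the probe of each of the 37 tested members; thin lines run from the lowest to the highest array, and grey bands mark negative control spots. Members lie along the line of equal levels, at a vertical distance equal to their ratio. They run from Gstt2 (6.60 in 0p and 6.65 in 15p) just above the controls to Gsto1 (17.3 and 17.2).

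Levels were computed from the same ratios, so they are no separate evidence on the difference between 15p and 0p. Each probe is compared only with itself. Gpx2 had mean log2 intensities of 15.3 in 15p and 15.2 in 0p cells, Gstp1 had 13.3 and 13.1, and Gsta3 had 8.25 and 8.09. Negative control spots had medians between 5.98 and 6.10. No spot was saturated. Gstt2 and Gstm4 (6.87 in 15p and 6.94 in 0p) lay within 1 log2 unit of the controls.

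Genes that supply or regulate these enzymes were listed separately, and none of them was called in either direction (limma with Benjamini-Hochberg adjustment, lowest adjusted p = 0.749). In glutathione synthesis and recycling, 8 of 14 tested genes were above 0 and 6 below (median 0.0033). Slc7a11, the cystine transporter that feeds glutathione synthesis, had 0.10, -0.21, -0.58 and -0.11 (mean -0.20 ± 0.21). Gclm, the modifier subunit of the rate-limiting ligase, had -0.19, 0.046, -0.30 and -0.17 (mean -0.15 ± 0.12). Both were lowest on array 2-Cy5. The catalytic subunit Gclc had -0.044 ± 0.011, and glutathione reductase, Gsr, had 0.0036 ± 0.019.

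Among partners of thioredoxin, glutaredoxin and peroxiredoxin, 12 of 18 were above 0 (median 0.024). Msrb3, a methionine sulfoxide reductase, had 0.25, 0.030, 0.62 and -0.16 (mean 0.19 ± 0.063). Txnip, which binds and inhibits thioredoxin, had 0.14, 0.13, 0.35 and -0.068 (mean 0.14 ± 0.0055). Both had the order of arrays seen for Gstp1, highest on array 2-Cy5 and lowest on 2-Cy3. Txnrd1, the reductase that recharges thioredoxin, had -0.030 ± 0.085. Enzymes of NADPH supply had 4 of 8 above 0 (median -0.0077), with Idh1 at 0.11 ± 0.074 and G6pdx, the entry enzyme of the pentose phosphate pathway, at 0.052 ± 0.12.

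Of 14 tested NRF2 regulators and targets outside the families above, 6 were above 0 and 8 below (median -0.013). The gene of NRF2 itself, Nfe2l2, had -0.12, 0.058, -0.48 and 0.15 (mean -0.098 ± 0.094; limma, adjusted p = 0.767). Maff, a small partner protein of NRF2, had 0.100 ± 0.17. Hmox1, heme oxygenase, was within 0.047 of 0 on 3 arrays and at -2.40 on array 2-Cy5 (mean -0.58 ± 0.86). Nqo1, a quinone reductase often used as a readout of NRF2, was not well above background on any array. Factors that build selenoproteins, the class to which Gpx1, Gpx2 and Gpx4 belong, had 2 of 5 above 0 (median -0.018), with Secisbp2 at -0.23 ± 0.28 and Eefsec at 0.078 ± 0.081.

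Markers of the sorted cells and of other skin cells were read on the same arrays. Spots well above background made up 58.6% to 68.3% in Cy5 and 55.5% to 65.1% in Cy3. Precision is limited by having 4 arrays. Of 7 basal keratinocyte and follicle markers, 6 were well above background in both RNAs, and Cd34, the sorted protein's gene, was so on 1 array, in 0p. Krt14, a basal keratin gene, had a ratio of 0.19 and Krt15, a bulge keratin gene, 0.17, near the largest of the members. Both were highest on array 2-Cy5 and lowest on 2-Cy3, as Gstp1 was, and Krt15 was split by dye. Neither passed the test (limma, adjusted p = 0.749 for both). The other tested markers of this list had ratios of 0.025 (Itga6), 0.00042 (Krt5), -0.0032 (Itgb4) and -0.026 (Trp63). The median of the list was 0.013. Of 6 fibroblast genes, Col3a1 was above background on all arrays (0.088), Col1a1 on 3 arrays in each RNA, Col1a2 on 3 in 15p and 1 in 0p, and Dcn, Lum and Pdgfra on 0. Also above background on all arrays in both RNAs were 2 of 4 endothelial genes, Pecam1 (0.060) and Kdr (-0.077). So were 2 of 6 immune genes, Cd3e (-0.043) and Fcer1g (-0.060), and 2 of 5 melanocyte genes, Tyr (-0.012) and Mlana (0.083). Among sebaceous genes 2 of 3 were, Scd3 (0.018) and Mc5r (-0.019). Of 4 adipocyte genes, 0 were. Among erythroid genes, Hba-a1 and Hba-a2 were above background and had ratios of 0.10 and 0.11, in the range of the members, while Alas2 was on 0 arrays. The summed intensity of the erythroid list ran from 4213 to 5341 in 15p and from 4120 to 4973 in 0p. For all 8 marker lists, the ranges of the sums over the arrays overlapped between the RNAs. These ranges ignore that both RNAs shared each array, so the overlap does not show equal levels. Within arrays, the erythroid sums were 5136 in 15p and 4809 in 0p (1-Cy5), and 4965 and 4973 (1-Cy3). In the same order they were 5341 and 4327 (2-Cy5), and 4213 and 4120 (2-Cy3). The part of the marker lists in the members' ratios was not tested. In bulk samples, fewer cells of a type and less RNA per cell cannot be told apart.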

How the data were processed

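The deposited scanner files give, for both dyes, the mean intensity of a spot and the median intensity of its local background. Per the file headers and the submitters' processing notes, these files came from Agilent Feature Extraction 10.7.3.1. Processed intensity and the log10 ratio of Cy5 over Cy3 in the same deposited files were background-subtracted and dye-normalised, per the file headers. Other columns used are the software's flags of 0 or 1 for spots above background, saturated or irregular, per the file headers. The deposited table of values has the same log10 ratios, still as Cy5 over Cy3 on every array.

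Analyses used R 4.3.3, limma 3.58.1 and the data.table package (version 1.17.8). Intensities were corrected with normexp (offset 50) and normalised by loess within each array, without control spots (weight 0). Irregular spots (154 to 286 an array) were left out, and spots of a probe averaged. A probe was tested if 15p RNA, or 0p RNA, gave a signal well above background on 4 of 4 arrays, and the brightest such probe stood for its gene (17376 genes). Directions came from the dyes in the labels. Both arrays of a replicate were averaged. The resulting 2 values per gene were tested against 0 (limma's lmFit and eBayes; two-sided; Benjamini-Hochberg, 0.05; residual degrees of freedom 1, prior 8.88). The SD is that of 2 replicate means. Levels are log2 intensities after loess and Aquantile. Probe positions are the files', in mm9; RefSeq symbols (GRCm38.p6) matched 26055 of 39429 probes, and members kept the files' names. Probe sequences are the files'; which part of a transcript each matches was not analysed here. Fits were tested on simulated data.

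Members and lists were chosen with earlier results of these data known. Named members are, per family, the 2 with the largest absolute mean ratio, any with 1 sign on 4 arrays and an unadjusted p under 0.05, and Gstp1, Gpx1, Gpx4, Prdx1, Prdx6, Sod1, Sod2, Cat and Txn1. Named list genes are the 2 largest per list with Gclc, Gsr, Txnrd1, Nfe2l2 and Nqo1. Others are named by probe sequence, detection or rank, after their values were seen. The replicates were on different slides, and the effects of slide and replicate cannot be told apart. Same-numbered arrays did not deviate together (r = -0.26 across genes). The main test still averaged them as labelled, and its SDs, intervals and p-values rest on that pairing. A replicate block was used only in an alternative fit. Of the members and marker genes, 1 each is not reported here.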

Additional observations from a re-analysis of the deposited data

Results flagged for a closer look

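For 10 of the 37 members, both arrays with 15p in Cy5 moved one way and both with 15p in Cy3 the other, on the brightest probe. This difference between the dye orientations was not tested, and it was seen in 27.0% of members and 32.3% of all genes. The mean log2 ratio of Cy5 over Cy3 gives its size. It was 0.14 for Gsto1, 0.16 for Gstm2, 0.19 for Gstm6, 0.12 for Gstp2, 0.045 for Prdx3 and 0.12 for Sod1. It was -0.065 for Mgst2, -0.025 for Prdx1, -0.15 for Prdx2 and -0.12 for Txn2. The mean over a dye-swapped pair cancels it where it is equal on both arrays. A further probe each of Gstp2, Prdx1 and Gstm2 did not split in this way, while a further probe each of Gstm2 and Gstm6 did.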

How the results depend on the processing

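The count of 0 called members held in 13 of 14 alternative fits. The exception was the fit that leaves out array 1-Cy5 (replicate 1, 15p in Cy5), which called 7 members higher (Gpx2, Gpx4, Gsta2, Gsto2, Gstp1, Mgst3 and Prdx5). That fit has 3 arrays and prior degrees of freedom estimated as infinite, so all genes share 1 spread. Over all genes, that fit called higher and lower ratios, which are counted together here. It called 3120 of 17376 genes. Over the 4 fits without 1 array, called genes ran from 0 to 3120, called members from 0 to 7, called list genes from 0 to 12, and the members' median from 0.022 to 0.068, replicates left out included. Prdx5 ran from -0.0020 (array 2-Cy5 left out) to 0.31 (array 1-Cy5 left out), against 0.15 on all arrays. The filter on dim probes left off gave 1 called gene. With 4 arrays and a dye term, a random replicate block could not be estimated, so the replicate block was entered as a fixed term, a choice made after the data were seen. It called 60 genes, 1 of them in the pathway lists and 0 of them members, again with infinite prior degrees of freedom. The members' median lay between 0.041 and 0.074 in the 10 fits on all arrays. Aquantile changes levels and not ratios, so it repeats the main values. The members' median also stayed at 0.050 with probes required above background in both RNAs, and with a dye term on 4 arrays. The deposited value table nearly repeats the processed signals (medians 0.0475 and 0.0476). The alternative fits are thus not independent of each other. Signs of members whose interval includes 0 (32 of 37) are counted in the report as signs of the mean only. The number of arrays limits these results: the unadjusted 95% intervals had a median half-width of 0.12 (log2), and no gene was called with means as far out as -0.59 and 0.47.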
